A study of Drosophila melanogaster with 2 samples.

Results

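The genes described here are the nuclear genes for mitochondrial ribosomal proteins of Drosophila melanogaster, chosen as the protein-coding genes named mRpL (large subunit) or mRpS (small subunit) in the Ensembl annotation. There were 73 of them among 13968 protein-coding genes on the chromosome arms, 47 named mRpL and 26 named mRpS. Subunit here follows that letter of the name only, and the place of each protein in the ribosome was not checked. Sites bound by NFAT, a Rel-domain transcription factor, were read from ChIP-seq (sequencing of immunoprecipitated chromatin) of embryos aged 0 to 24 h, taken whole. The flies were of the NFAT-GFP strain, with an insertion targeting NFAT, and expressed an NFAT-eGFP fusion protein. Chromatin was sonicated and precipitated with an anti-GFP antibody according to the sample descriptions, while the antibody field names NFAT. Both samples were biological replicates of 1 group, with no second genotype or treatment. Whole embryos mix every tissue and many stages, so the cells that carried a peak are not known. No control immunoprecipitation was analysed here. A gene was counted as having a peak when a summit of the larger series-level list, made from both replicates, lay within 1000 bp of any of its transcription start sites (TSSs), and the same was then read in each replicate's own list.

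Mitochondria translate the few proteins of their own genome on dedicated ribosomes, whose RNA is mitochondrial and whose proteins are all made from nuclear genes and imported. Part of the protein set descends from bacterial ribosomal proteins, and part is found in mitochondria alone. These ribosomes make core subunits of the respiratory chain and of ATP synthase, so their protein genes are used in most tissues. Many fly genes are arranged head to head with another gene, both being transcribed outward from a shared promoter region, called a divergent promoter.

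The sequences under the summits show what kind of DNA carried the peaks. Each line gives a summit of the larger list with 50 bases on either side, on the dm6 plus strand, from the RefSeq Release 6 genome. Capitals mark matches, on either strand, to those of the 14 searched motifs that have 6 or more letters. The first 4 lines are strong peaks in AT-rich DNA, and the others are peaks that held ACAGTG or ACACTG, or one of a pair of rarer elements, namely the DNA replication-related element TATCGATA bound by the factor DREF, and GGTCACACT, bound by M1BP. For mRpS6 the window is that of its peak on the side of the neighbouring gene Cip4.
mRpS23, summit at chr2L:13835422-13835522: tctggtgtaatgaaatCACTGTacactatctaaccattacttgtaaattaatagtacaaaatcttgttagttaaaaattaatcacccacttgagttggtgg
mRpS10, summit at chr3R:15229480-15229580: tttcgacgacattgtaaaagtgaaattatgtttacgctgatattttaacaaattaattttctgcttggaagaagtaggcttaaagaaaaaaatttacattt
mRpL23, summit at chr3L:2373548-2373648: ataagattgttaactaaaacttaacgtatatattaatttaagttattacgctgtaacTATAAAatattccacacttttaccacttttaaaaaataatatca
mRpL20, summit at chr3L:13018128-13018228: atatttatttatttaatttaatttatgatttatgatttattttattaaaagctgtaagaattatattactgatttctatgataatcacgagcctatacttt
mRpS2, summit at chr2L:4850548-4850648: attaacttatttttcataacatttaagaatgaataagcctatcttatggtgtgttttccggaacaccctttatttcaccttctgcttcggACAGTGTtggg
mRpL4, summit at chr2L:16329181-16329281: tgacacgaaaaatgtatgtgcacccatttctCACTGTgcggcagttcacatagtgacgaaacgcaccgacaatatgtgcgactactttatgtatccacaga
mRpS11, summit at chr3R:17072663-17072763: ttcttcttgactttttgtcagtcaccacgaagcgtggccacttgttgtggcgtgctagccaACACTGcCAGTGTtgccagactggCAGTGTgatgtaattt
mRpS6, summit at chr3L:4364007-4364107: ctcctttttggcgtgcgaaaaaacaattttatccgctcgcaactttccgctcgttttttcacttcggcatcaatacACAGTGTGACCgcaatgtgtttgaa
mRpS18B, summit at chr2L:20097239-20097339: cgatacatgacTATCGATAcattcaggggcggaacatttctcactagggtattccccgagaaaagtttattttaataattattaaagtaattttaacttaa
mRpL1, summit at chr3R:8301379-8301479: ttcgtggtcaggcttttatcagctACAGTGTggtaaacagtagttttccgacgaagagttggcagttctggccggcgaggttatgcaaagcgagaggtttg

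These windows differ widely in composition. The window at mRpL20 had a GC content of 16.8% and that at mRpL23 one of 19.8%. The mRpS10 window was at 25.7% and the mRpS23 window at 30.7%. Over the 8 strongest peaks at the mitochondrial ribosomal protein genes the median GC content was 27.2%, and over their other 27 peaks it was 42.6%. The strongest 100 peaks of the whole list had a median of 31.7%, and all 4899 peaks on the chromosome arms had a median of 43.6%. Low GC content was thus shared with the strongest peaks of the whole list, and over all 35 peaks at these genes the median was 41.6%.

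In the larger list, 32 of the 73 genes had a peak (43.8%, Wilson 95% interval 33.0 to 55.2%), against 26.6% of all protein-coding genes. These intervals cover counting error only, and neighbouring genes are not independent of each other. In the conservative list, 28 of 73 did (38.4%), against 22.7% of all genes. Replicate 2 gave peaks at 29 of 73 (39.7%, 29.3 to 51.2%), against 24.2% of all genes. Replicate 1 gave peaks at 15 of 73 (20.5%, 12.9 to 31.2%), against 15%, a share whose interval includes that of all genes. Replicate 1 also had the shorter list, with 2236 peaks on the arms, against 3994 in replicate 2. The list of replicate 2 was also shortened to its strongest 2236 peaks, an alternative added after seeing the data. Then 18 of the 73 genes had a peak (24.7%, 16.2 to 35.6%), against 16.3% of all genes. This interval just includes the share of all genes. Because the files carry no read counts, the depth of the libraries is unknown, and a missing peak cannot be told from a peak too weak for the list.

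The 4 strongest peaks, at mRpL41, mRpS23, mRpS10 and mRpL23, stood far above the rest. The signal is the value of the authors' peak caller for each peak, on an unstated scale, so values compare peaks within 1 list only. The peak of mRpL41, a large-subunit protein without a bacterial counterpart, had signals of 618 in replicate 1 and 997 in replicate 2, and 1613 in the series-level list. It ranked 4 among all 4899 peaks, with its summit 117 bp upstream of the TSS. At mRpS23, a small-subunit protein specific to mitochondria, the signals were 557 in replicate 1 and 774 in replicate 2. The series-level peak there (2L, 13835325 to 13835605, dm6) had a signal of 1324 and rank 8. Its summit lay 400 bp upstream of mRpS23 and 92 bp from the TSS of CenG1A, a GTPase-activating protein for Arf, so it was much closer to the neighbour. At mRpS10, the counterpart of a protein of the head of the bacterial small subunit, the signals were 534 in replicate 1 and 695 in replicate 2. The series-level peak (3R, 15229406 to 15229647) had a signal of 1215 and rank 11, with the summit 135 bp upstream of mRpS10 and 122 bp from Art3, an arginine methyltransferase gene. At mRpL23, whose bacterial counterpart sits at the exit of the nascent chain tunnel, the signals were 411 in replicate 1 and 556 in replicate 2. Its series-level peak (3L, 2373460 to 2373758, signal 963, rank 22) had its summit 80 bp downstream of the TSS, whereas 29 of the 32 genes had theirs upstream. All 4 were within the top 25 of the thresholded list of each replicate.

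Below these 4 the signal dropped to 396 at mRpS2, and no other peak at these genes was within the strongest 100 of the list. The mRpS2 peak ranked 159, with signals of 146 in replicate 1 and 251 in replicate 2, and its summit lay 43 bp from Mon1, an exchange factor for the GTPase Rab7. At mRpL24, whose bacterial counterpart is an assembly protein of the large subunit, the signals were 131 in replicate 1 and 242 in replicate 2 (series-level 365, rank 194). At mRpL20 they were 134 in replicate 1 and 140 in replicate 2 (272, rank 349). The mRpL20 peak was also narrow, 71 bp wide where the median width was 284 bp, and lay on the side of Icmt, a methyltransferase for prenylated proteins. At mRpL4, whose bacterial counterpart lines the tunnel for the nascent chain, the signals were 74.4 in replicate 1 and 105 in replicate 2 (176, rank 849). The peak at mRpL34 had 53.6 in replicate 1 and 88.4 in replicate 2 (151, rank 1095), 142 bp from the TSS of Dg, the dystroglycan gene. A second series-level peak at mRpL34, with a signal of only 17.5, overlapped the same peak of each replicate. All 9 genes from mRpL41 to mRpL34 had a thresholded peak in both replicates.

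From mRpS11 down, many peaks were in the thresholded list of replicate 2 alone. At mRpS11 the signal was 83.2 in replicate 2, with no ranked peak within 1000 bp in replicate 1. At mRpL11, whose bacterial counterpart helps to bind translation factors, it was 83.6 in replicate 2 and 39.4 in replicate 1, where only the ranked list held it. At mRpL17 both replicates had a thresholded peak, with 40.0 in replicate 1 and 79.0 in replicate 2. The mRpL17 peak ranked 1987 among the 2236 of replicate 1, near the end of that list. The next genes, mRpS16, mRpL32 and mRpL33, had 30.1, 31.6 and 40.1 in the ranked list of replicate 1. In replicate 2 the same genes, in that order, had thresholded signals of 84.9, 85.0 and 64.3. At mRpS21 both replicates had a thresholded peak again, with 45.0 in replicate 1 and 50.6 in replicate 2. The rank order by signal was thus not that of presence in both replicates.

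**Figure D1:**
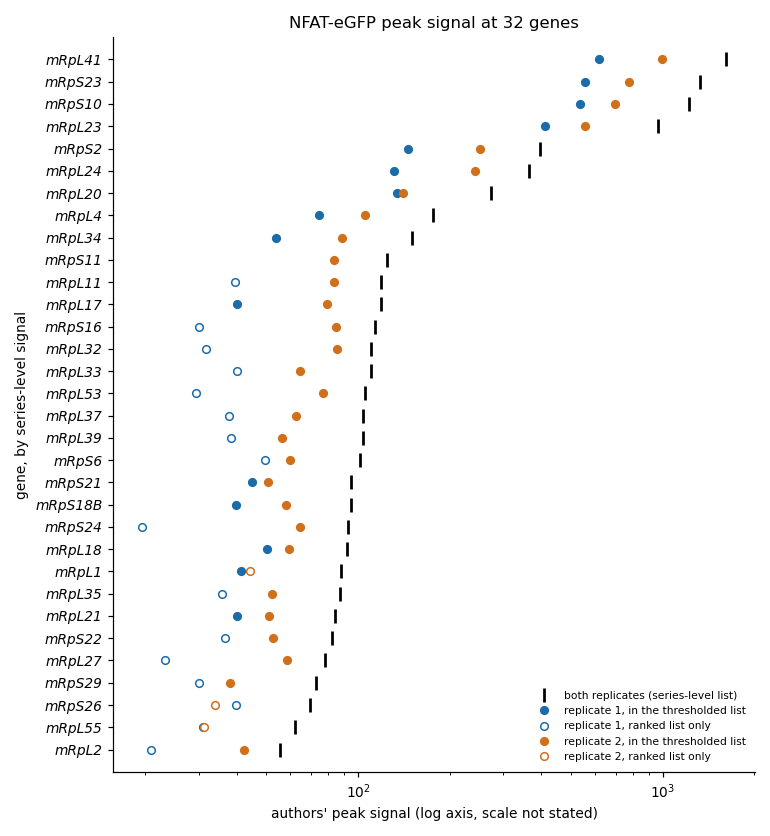
Peak signal on a log axis at the 32 genes with a peak, ordered by the series-level signal (black ticks). Blue points are replicate 1 and orange points replicate 2, filled where the peak is in that replicate's thresholded list and open where only the ranked list holds it; mRpL41, mRpS23, mRpS10 and mRpL23 are at 411 or higher in both replicates, and mRpL4 and those below it are at 105 or lower.

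Over all 35 peaks at these genes, 15 (42.9%) overlapped a thresholded peak in both replicates, against 39.8% of all 4899 peaks. A further 17 were found in replicate 2 only (48.6%), against 33.5% of all peaks, and 1 in replicate 1 only. The 2 found in neither (5.71%, 1.58 to 18.6%) were a smaller share than the 22.3% of all peaks. In the longer ranked lists, 33 of 35 (94.3%) overlapped a peak in both replicates, against 94.5% of all peaks. By gene, 14 had thresholded peaks in both replicates, 15 in replicate 2 only and mRpL1 in replicate 1 only. At mRpL1 the signal was 41.4 in replicate 1, and the ranked list of replicate 2 held a peak of 44.3 that is outside its thresholded list. The peaks at mRpS26 and mRpL55 were in neither thresholded list, with 39.8 and 31.0 in the ranked list of replicate 1, and 33.8 and 31.3 in that of replicate 2. The summit in the matched replicate peak was a median of 7 bp (replicate 1) and 5 bp (replicate 2) away from the series-level summit. As a description, the signals of the 33 matched peaks had a Spearman coefficient of 0.683 between replicates. These points share the 2 libraries.

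All 32 genes with a peak had a divergent neighbour, that is, a protein-coding gene on the opposite strand starting at most 1000 bp upstream. Among all 3709 protein-coding genes with a peak, 60.0% had one. The arrangement is frequent among the mitochondrial ribosomal protein genes to begin with. It held for 58 of 73 (79.5%, 68.8 to 87.1%), against 36.3% of all protein-coding genes. Of the 58 with such a neighbour, 32 had a peak (55.2%, 42.5 to 67.3%), against 43.9% of all genes with one. Of the 15 without, 0 had a peak, which allows a share of up to 20%, against 16.7% of all genes without one. Both intervals include the value for genes of the same arrangement, and the difference was not tested.

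The split depends on how far a neighbour may be. With neighbours counted up to 500 bp only, 29 of 53 genes with one and 3 of 20 without had a peak, since the neighbours of mRpL41, mRpL4 and mRpS29 start 762, 793 and 637 bp away. Read at 1000 bp, the count with a neighbour differed between the replicates. In replicate 1, 15 of 58 genes with a neighbour had a peak (25.9%, 16.3 to 38.4%), against 27.5% of all genes with one. In replicate 2, 29 of 58 did (50%, 37.5 to 62.5%), against 41.2%. Of the 15 without a neighbour, 0 had a peak in either replicate, against 7.93% of all genes without a neighbour in replicate 1 and 14.5% in replicate 2. The ranked lists hold the thresholded peaks too, so their signals are no separate readout of this split. In the ranked list of replicate 1 the best signal within 1000 bp had a median of 31.6 over 51 genes with a neighbour and 17.3 over 11 without. In replicate 2 the medians were 43.3 over 58 genes with a neighbour and 20.5 over 14 without. Over all protein-coding genes with a ranked peak, not split by neighbour, the medians were 20.1 in replicate 1 and 26.6 in replicate 2.

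**Figure D2:**
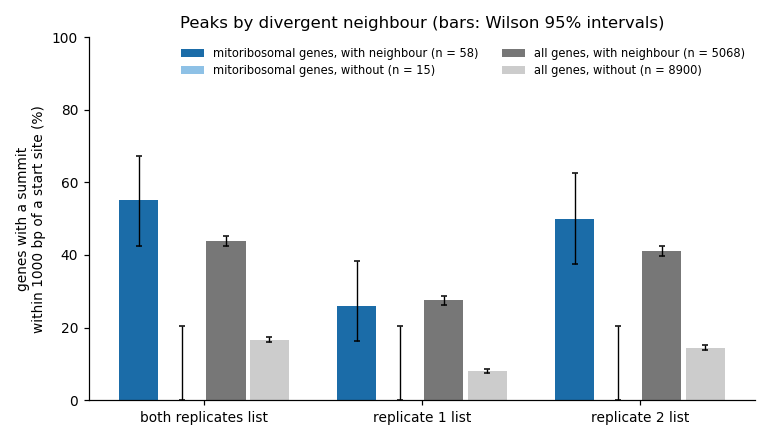
Percent of genes with a summit within 1000 bp of a start site, for the mitochondrial ribosomal protein genes and for all protein-coding genes, split by presence of a divergent neighbour, in the larger series-level list and in each replicate's list. Bars are shares and lines are Wilson 95% intervals; the mitochondrial ribosomal protein genes without a neighbour are at 0 in all 3 lists, with intervals up to 20.4%.

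Most summits lay between the starts of the gene and its neighbour. This was so for 26 of 32 genes (81.2%, 64.7 to 91.1%), against 63.7% of the 2226 protein-coding genes with a neighbour and a peak. The exceptions were mRpL23, mRpL11, mRpL18, mRpL27, mRpL55 and mRpL2. The median distance from summit to TSS was 143.5 bp (10 to 740), against 130 bp for all genes with a peak. For cytoplasmic ribosomal protein genes with a peak it was 27 bp, so the median summit at the mitochondrial set lay farther out. Summits were upstream of the TSS at 29 of 32 genes (90.6%), against 79.7% of all genes with a peak and 85.9% of those with a neighbour. Within 100 bp of the TSS lay 13 of 32 summits (40.6%), against 43.2% for all genes.

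The peak was as often closer to the neighbour as to the mitochondrial ribosomal protein gene. The nearest protein-coding TSS was that of the gene itself for 15 and that of the neighbour for another 15. For mRpL27 it was RpL27A, a cytoplasmic ribosomal protein gene, 498 bp away, and for mRpL55 it was cdi, a protein kinase gene, 39 bp away. Counting each summit for its nearest gene only, 17 of 73 genes had a peak (23.3%), against 19.3% of all genes. In replicate 1 this count was 6 of 73, against 10.2% of all genes, and in replicate 2 it was 14, against 17.1%. Under this rule the genes lay near the share of all genes, and the per-replicate counts are alternatives added after seeing the data.

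Among the genes whose own TSS was nearest were mRpS11, mRpS16, mRpL32, mRpL53, mRpL37, mRpL39, mRpS6, mRpS21, mRpS18B, mRpL1, mRpL35 and mRpS29, beside mRpL41, mRpL23 and mRpL4. The neighbours in these pairs included Ns1 (the GTPase nucleostemin), qless (coenzyme Q synthesis), AGO1 (microRNA silencing), Prosbeta2 (a proteasome subunit), Droj2 (a DnaJ chaperone) and rad50 (DNA repair). Where the neighbour was nearer, the pairs were with CenG1A, Art3, Mon1, betaggt-I, Icmt and Dg, most of them given above, and with further genes at weaker peaks. These were HtrA2 (a mitochondrial protease) for mRpL11, Tudor-SN for mRpL17, norpA (phospholipase C) for mRpL33 and Apc2 for mRpS24. They also included Taz (tafazzin, which remodels cardiolipin) for mRpL18, rept (a helicase-like ATPase of chromatin complexes) for mRpL21, CG5003 for mRpS22, CG13698 for mRpS26 and FoxK for mRpL2. Mitofilin, a protein of the inner membrane folds, paired with mRpL35, and ATPsynD, an ATP synthase subunit, with mRpL55. No neighbour was itself a mitochondrial ribosomal protein gene, and no peak was counted for more than 1 of the 73.

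**Figure D3:**
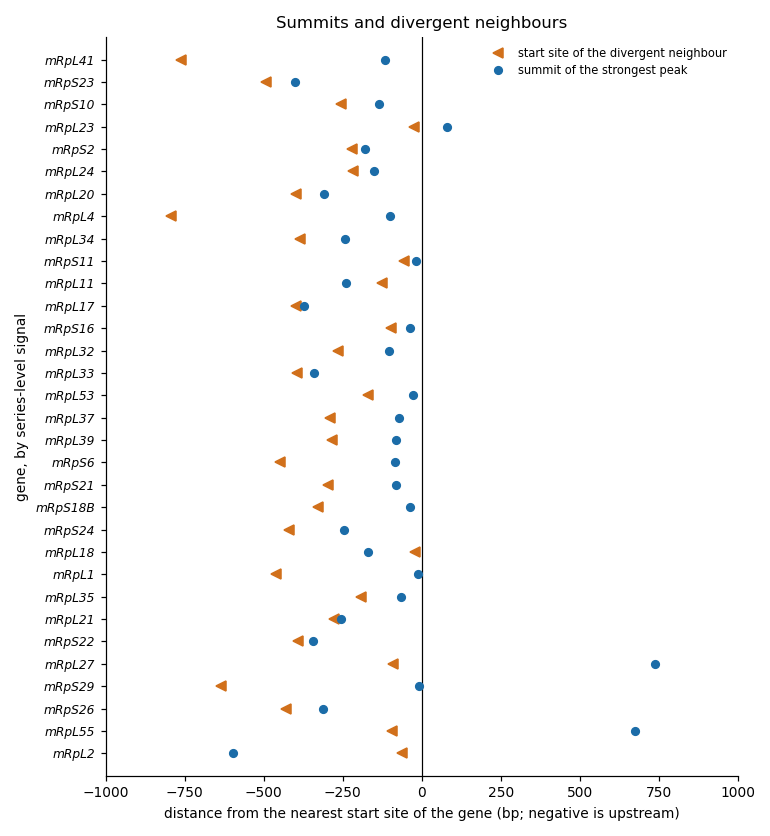
Distance in bp, with upstream negative, from the start site of each of the 32 genes to the summit of its strongest peak (blue points) and to the start site of its divergent neighbour (orange triangles). In 26 rows the summit lies between the gene and the neighbour; mRpL27 and mRpL55 have theirs 740 and 674 bp downstream.

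Peaks were found at narrow and at wide spacings of the pairs. The median gap between the starts was 288 bp for the 32 with a peak and 261.5 bp for the 26 with a neighbour and no peak, and for all genes with a neighbour it was 295.5 bp. At gaps under 100 bp, overlaps included, 7 of 18 genes had a peak, against 41.8% of all genes at such gaps. At gaps from 250 to under 500 bp, 17 of 28 did, against 50.5%. Between 100 and 250 bp 5 of 7 genes had a peak, against 40.3%, and from 500 to 1000 bp 3 of 5, against 39.1%, both counts over few genes.

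By subunit, as given by the gene name, the shares were close. They were 20 of 47 for mRpL genes (42.6%, 29.5 to 56.7%) and 12 of 26 for mRpS genes (46.2%, 28.8 to 64.5%). By origin, 24 of 46 genes for proteins with a bacterial counterpart had a peak (52.2%, 38.1 to 65.9%) and 8 of 27 for mitochondria-specific proteins (29.6%, 15.9 to 48.5%), against 26.6% of all genes. Within genes with a divergent neighbour these counts were 24 of 37 (64.9%) and 8 of 21 (38.1%), against 43.9% of all genes with one. In replicate 1 they were 13 of 37 and 2 of 21, against 27.5%, and in replicate 2 they were 22 of 37 and 7 of 21, against 41.2%. The order was the same in both replicates, the intervals in the larger list overlapped, and the difference was not tested. The 2 strongest peaks were at mitochondria-specific genes, against this order.

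On the X chromosome, 1 of 11 genes had a peak (9.09%, 1.62 to 37.7%), namely mRpL33, against 25% of all X-linked protein-coding genes. Of the 62 genes on other arms 31 did (50%, 37.9 to 62.1%). Of the 11, 9 had a divergent neighbour. With 11 genes the interval includes the share for all X-linked genes.

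The peaks at these genes were mostly of middle strength apart from the 4 at the top. From the strongest quartile of the list down, 9, 14, 8 and 4 of the 35 peaks fell into each quartile. Their median percentile by signal was 58.0, against 55.7 for all peaks with a protein-coding TSS at most 1000 bp away. This order was not the same in every list. The median was 49.8 against 54.9 in the conservative list and 47.4 against 53.4 in replicate 2. In replicate 1 it was 65.2 against 52.1. The conservative list retained 30 of the 35 (85.7%, 70.6 to 93.7%). As a whole it holds 3909 peaks on the arms, where the larger list holds 4899.

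Among the 41 genes without a peak, most had a weak ranked peak. The best ranked series-level signal within 1000 bp had a median of 33.6 over the 36 of them with such a peak, against 34.8 over all 8401 protein-coding genes with a ranked but no thresholded peak. Counting any ranked peak, 68 of 73 genes had one (93.2%), against 86.7% of all genes, so presence in the ranked list says little. The 5 without were mRpL3, mRpL48, mRpS18C, mRpS5 and mRpS7. The next signals after the highest were 63.1 at mRpL12, whose bacterial counterpart forms the stalk of the large subunit, 59.9 at mRpS31, 56.0 at mRpL9 and 55.9 at mRpS25. By distance, the nearest thresholded summits just outside the window were 1343 bp from mRpS7, 1416 bp from mRpL13, 1449 bp from mRpS18A, 1686 bp from mRpL22 and 1892 bp from mRpL46. Just inside it were the summits of mRpL2 at 599 bp, mRpL55 at 674 bp and mRpL27 at 740 bp.

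The gene mRpL47 stood apart from the other 40. Its ranked peak had a series-level signal of 168, with 54.7 in replicate 1 and 117 in replicate 2, higher than at mRpL34. Its −log10 global IDR (irreproducible discovery rate, a measure of how poorly a peak's rank repeats between replicates) was 4.27, past the limit of 2, yet the thresholded lists used here do not hold it. It has the divergent neighbour Kdm3, a histone demethylase gene, 99 bp away. Counting every ranked peak past that limit, also added after seeing the data, 33 of 73 genes had a peak, against 27.2% of all genes. The reason was not tested.

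A sequence feature frequent at these genes lay mostly near their starts. Within 50 bp of summits it was about as frequent as at all peaks, but within 100 bp it was more frequent, as given below. The hexamer CAGCTG, an E-box and a known element of fly core promoters, was searched from 250 bp before to 50 bp after the most upstream start of each gene. It occurred in 40 of 73 promoters (54.8%, 43.4 to 65.7%), against 17.7% of all 13968 protein-coding promoters and 22.0% of those with a divergent neighbour. Large-subunit promoters held it in 27 of 47 cases and small-subunit promoters in 13 of 26. Beginning from 25 bp before to 24 bp after the start, it occurred in 28 of 73 (38.4%, 28.1 to 49.8%), against 5.82% of all promoters. Of the 45 matches, 36 (80.0%) began between 50 bp before and 49 bp after the start, against 49.9% of the matches in all promoters. The stretches below, each of 60 bases from the RefSeq Release 6 genome (dm6), read along the gene's strand, and the E-box is in capitals. The first 6 are from genes with a peak and the others from genes without one.
mRpL23, minus strand of chr3L:2373700-2373759: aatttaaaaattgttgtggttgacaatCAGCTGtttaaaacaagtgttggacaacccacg
mRpS2, minus strand of chr2L:4850398-4850457: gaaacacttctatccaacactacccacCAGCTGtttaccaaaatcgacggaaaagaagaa
mRpL24, minus strand of chr2L:4945309-4945368: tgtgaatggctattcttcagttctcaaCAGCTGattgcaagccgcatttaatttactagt
mRpL11, plus strand of chr3R:14511806-14511865: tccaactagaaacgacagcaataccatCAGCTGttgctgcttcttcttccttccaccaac
mRpL17, plus strand of chr3L:264765-264824: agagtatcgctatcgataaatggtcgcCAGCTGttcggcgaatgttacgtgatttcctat
mRpS6, plus strand of chr3L:4364553-4364612: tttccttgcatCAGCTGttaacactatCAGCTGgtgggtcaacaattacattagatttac
mRpL46, plus strand of chr3L:1777410-1777469: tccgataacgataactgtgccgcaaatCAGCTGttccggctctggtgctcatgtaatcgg
mRpL47, minus strand of chr3R:9515858-9515917: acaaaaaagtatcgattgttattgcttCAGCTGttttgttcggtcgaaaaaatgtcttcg
mRpS34, plus strand of chr3L:16348049-16348108: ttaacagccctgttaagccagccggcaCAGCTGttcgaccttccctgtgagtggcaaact
mRpS35, plus strand of chr3L:2780860-2780919: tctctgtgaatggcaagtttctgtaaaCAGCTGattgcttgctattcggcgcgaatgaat

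Anywhere in the promoter, the E-box was about as frequent at genes with a peak as at genes without one. It stood in 18 of 32 promoters with a peak (56.2%) and in 22 of 41 without (53.7%). Close to the start, from 25 bp before to 24 bp after it, the counts were 16 of 32 (33.6 to 66.4%) with a peak and 12 of 41 (17.6 to 44.5%) without, with overlapping intervals. Put the other way, 18 of 40 genes with the element had a peak (45.0%, 30.7 to 60.2%) and 14 of 33 genes without it (42.4%, 27.2 to 59.2%). At genes with a peak its matches lay a median of 125 bp from the summit, and 1 of the 22 was within 50 bp. In the windows of 50 bp on either side of summits it occurred at 2 of 35 peaks (5.71%), against 6.35% of all peaks. Widened to 100 bp on either side, 9 of 35 windows held it (25.7%, 14.2 to 42.1%), against 12.8% of all peaks.

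**Figure D4:**
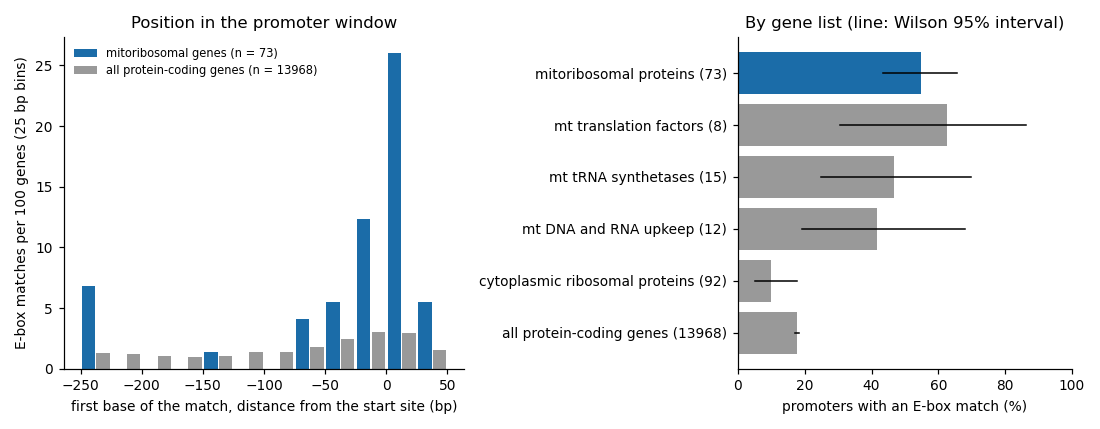
Left, E-box matches per 100 genes by distance of their first base from the start site, in bins of 25 bp, for the 73 mitochondrial ribosomal protein genes (blue) and all 13968 protein-coding genes (grey); the blue bars peak at 26.0 in the bin from 0 to 24 bp. Right, percent of promoters with a match by gene list, with the number of genes in brackets and Wilson 95% intervals as lines; the 4 mitochondrial lists are between 41.7 and 62.5% and the cytoplasmic ribosomal protein genes at 9.78%.

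Other gene lists of the mitochondrial expression system also held the E-box often. The element was in 5 of 8 promoters of mitochondrial translation factors, 7 of 15 of mitochondrial aminoacyl-tRNA synthetases and 5 of 12 of genes for upkeep of mitochondrial DNA and RNA. It was also in both promoters of tko and bonsai, mitochondrial ribosomal proteins under other names. Cytoplasmic ribosomal protein promoters held it in 9 of 92 cases (9.78%, 5.23 to 17.6%). Peaks followed another order, with 32 of 73 mitochondrial ribosomal protein genes set against 65 of 92 cytoplasmic ones (70.7%, 60.7 to 79.0%). Those with the highest signal were RpS27 (700.0), RpL7 (606) and RpL34b (475), all below mRpL23. Without a divergent neighbour, 19 of 37 cytoplasmic ribosomal protein genes still had a peak (51.4%, 35.9 to 66.6%), against 16.7% of all genes without one. Of the mitochondrial ones 0 of 15 did, with an interval up to 20.4% that includes the share of all such genes. None of these differences between lists was tested.

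The share with a peak varied among the smaller lists, beside 26.6% of all genes. Among the aminoacyl-tRNA synthetases 3 of 15 (20%) had one, LeuRS-m (363), ArgRS-m (146) and AlaRS-m (86.1), and all 3 were among the 7 with a divergent neighbour. Of the translation factors only mEFTu1, an elongation factor, had one (76.0), 1 of 8. Of the upkeep genes 5 of 12 (41.7%) did, led by PNPase, an RNA-degrading enzyme (1069.5), mtSSB, the single-stranded DNA-binding protein (623), and mtTFB1, an rRNA methyltransferase (82.9). Neither tko nor bonsai had a peak. Some of these summits lay far from the start of the gene named. The distance was 864 bp at LeuRS-m, 155 bp at ArgRS-m, 11 bp at AlaRS-m and 487 bp at mEFTu1. At PNPase it was 79 bp, at mtSSB 356 bp and at mtTFB1 904 bp.

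Under the summits, ACAGTG and ACACTG were each in 8 of 35 windows (22.9%, 12.1 to 39.0%), against 11.1% of all summit windows for ACAGTG and 10.3% for ACACTG. The excess depended on the window. Widened to 100 bp on either side, ACAGTG was in 9 of 35 windows (25.7%, 14.2 to 42.1%), against 19.7% of all peaks. ACACTG was in 8 of these wider windows (22.9%), against 19.1%. Both motifs can overlap in ACAGTGT, as in the mRpL1 and mRpS2 windows. The element TATCGATA was in 2 of 35 windows (5.71%), at mRpS18B and mRpS29, against 3.25% of all. It was more frequent in the promoters, at 15 of 73 (20.5%, 12.9 to 31.2%), against 9.36% of all promoters and 15.8% of those with a divergent neighbour. The motif GGTCACACT was in 2 of 35 windows, at mRpS16 and on the Cip4 side of mRpS6, against 1.31% of all. The NFAT core GGAAA was in 10 of 35 windows (28.6%), against 26.4% of all, and the longer TGGAAA in 2 (5.71%), against 11.1%. The repeat GAGAG, bound by GAGA factor, was in 1 of 35 windows, against 14.1% of all, and in 12 of 73 promoters (16.4%, 9.66 to 26.6%), against 29.8%. The shorter CGATA was in 8 of 35 windows, against 20.7%, and TATAAA in 2, against 11.6%. TGCGCA was in 1, against 2.94%, and CACGTG, GCGCATGC and AGGTGGCGC were in 0 of 35. Of all summit windows 1.12% held CACGTG, 0.245% GCGCATGC and 0.959% AGGTGGCGC. A match is a run of letters and not evidence of binding.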

How the data were processed

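With both samples biological replicates of 1 group, nothing was tested between conditions and no p-value is given. The deposited files used were peak lists on dm6: a larger and a conservative thresholded list and a ranked list over both replicates, and a thresholded and a ranked list for each replicate. The authors' lists give a signal per peak, on a scale not stated, the −log10 of a q-value, a summit offset and, in the ranked lists, a score that is the −log10 of the global IDR, per the file columns. No peak of the authors' thresholded lists exceeds a global IDR of 0.01. The aligner and peak caller are not stated.

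Summits on the chromosome arms (4899 of 4924 peaks of the larger list) were set against TSSs of Ensembl release 115. The peaks of each replicate were called on that replicate, and overlap needed 1 bp. A divergent neighbour started on the opposite strand up to 1000 bp upstream, or up to 100 bp past the start. Both strands were searched for motifs, within 50 bp of summits and in promoters from the genome sequence. Subunit followed the letter in the gene name, and origin followed subunit numbering.

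The members and lists were chosen with earlier results of these data known. Every gene with a peak is named, the 15 strongest with values in both replicates, as is another of the strongest 20 found in both; of the others, the 5 nearest outside the window and the 5 with the highest ranked signal; of other lists, the 3 strongest. The E-box was singled out after its share was seen. Symbols without a match were left out (mtRF1, Twinkle). The steps were tested on simulated data. Python 3.11.15, NumPy 2.4.6, pandas 2.3.3 and matplotlib 3.10.9 were used.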

Additional observations from a re-analysis of the deposited data

How the results depend on the processing

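Of the recomputed values, 84 stayed within their limits and 31 did not. A value within its limits could still differ from the main one. With a window of 250 bp, 23 of 73 genes had a peak (31.5%), against 19.4% of all genes. The stronger 50% of the peaks also gave 23 of 73, against 17.2%. The count was 28 in the conservative list, 29 with a window of 500 bp and 38 with 2000 bp. The count of 32 genes with a peak became 15 with replicate 1 alone and 29 with replicate 2 alone, 17 with the nearest gene only, and, chosen after seeing the data, 18 with replicate 2 shortened, 6 with the nearest gene only in replicate 1 and 14 in replicate 2. The share of all genes, 26.6%, became 22.7% (conservative list), 15 to 24.2% (1 replicate each), 17.2% (stronger 50% of the peaks), 19.4, 23.4 and 31.7% (windows of 250, 500 and 2000 bp), 27.3% (peak interval), 19.3% (nearest gene only), 16.3% (replicate 2 shortened), and 10.2 and 17.1% (nearest gene only in replicate 1 and 2). With replicates left out, the share with a peak ranged from 25.9 to 50% for genes with a divergent neighbour, from 21.3 to 38.3% for the large and from 19.2 to 42.3% for the small subunit. The share of peaks in both replicates became 94.3% in the ranked lists. In windows of 100 bp on either side of summits CGATA was at 45.7%, against 32.4% of all peaks. CAGCTG was there at 25.7%, against 12.8%, and GGAAA at 57.1%, against 45.4%. TGGAAA was at 20%, against 20.6%, and GAGAG at 17.1%, against 28.2%. With replicates left out the ranges were 6.67 to 25.8% for CGATA, 0 to 6.45% for GGTCACACT, 0 to 6.45% for CAGCTG, 0 to 6.45% for TGGAAA and 0 to 13.3% for GAGAG. The count of 0 of 15 genes without a neighbour became 2 of 15 with a window of 2000 bp and 3 of 20 with neighbours counted up to 500 bp. No paired analysis was possible because there is only 1 group. Depth is unknown, and 2 replicates limit every statement on repeatability.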
